A study of Mus musculus with 6 samples.

Results

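The mouse genes described here are 40 genes whose loss, alone or together with a close relative, leaves the neural tube of mouse mutants open, listed by their roles in planar polarity, grainyhead control, the apical actin network, cilia, chromatin and transcription, and signalling. They were chosen by symbol, from what such mutants are known for, but with earlier results of these data known. Each was read on every probe set annotated to its symbol alone. Of the 40, 39 had such a probe set, which gave 106 of the 45101 probe sets on the array and 39 of the 18194 genes tested, and Rock2 was not analysed here. RNA came from whole mouse embryos at E9.5, with 1 embryo per Affymetrix mouse genome array and a pair of littermates, RFC1+/+ and RFC1-/-, from each of 3 litters. RFC1, with the mouse gene symbol Slc19a1, encodes the reduced folate carrier, and the targeted allele had been crossed from a hybrid stock that included C57BL/6J onto the inbred SWV background. The dams of both genotypes were heterozygous and received 25 mg/kg folic acid under the skin every day from E0.5. Labels describe the 3 RFC1+/+ embryos as normal, and the 3 RFC1-/- embryos as having an open neural tube (craniorachischisis) and a chorioallantois that had not fused. Genotype, malformation and any delay in growth therefore cannot be told apart, and each value is an average over all tissues of 1 embryo.

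The neural tube forms when the neural plate narrows, bends and fuses along the back of the embryo. Planar polarity proteins drive the narrowing by orienting cells within the plate, the actin network below the apical surface bends it, and grainyhead factors act in the surface ectoderm that closes over it. Loss of core planar polarity genes is known for craniorachischisis, in which nearly the whole tube fails to close, whereas loss of actin, chromatin or cilia genes more often leaves the head folds open.

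Slc19a1 itself, on its brightest probe set, read 9.11, 9.10 and 8.89 in RFC1+/+ and 9.97, 10.10 and 9.84 in RFC1-/- embryos (litters 1, 2 and 3, log2 scale). It was thus higher in the RFC1-/- embryos, but the sources used here do not say which part of the gene the allele has lost, so the array does not check the genotypes. Array medians lay between 5.43 and 5.49, correlations between arrays lay between 0.984 and 0.996, and no array stood apart. Markers of neural tissue were present in every embryo, with a mean log2 level over 10 neural progenitor markers of 9.07 to 9.20 in RFC1+/+ and 7.65 to 8.46 in RFC1-/- embryos.

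Most of the neural tube closure genes differed little between RFC1-/- and RFC1+/+ embryos. Vangl1, a membrane protein of the planar polarity core, rose 1.44-fold in RFC1-/- embryos, and Twist1, a helix-loop-helix factor of the head mesenchyme that supports the cranial neural folds, fell 1.45-fold. These were the 2 of 39 genes that passed an adjusted p of 0.05 in limma, where 5.32% of all genes tested did (3.67% higher and 1.65% lower). In whole embryos, fewer cells of a type and less RNA per cell cannot be told apart. Log2 differences (RFC1-/- minus RFC1+/+, mean of 3 litters, brightest probe set) ran from -0.58 for Vangl2 to 0.52 for Vangl1. Their median was -0.03, beside -0.01 over all genes, and the median size was 0.15, beside 0.11. At an unadjusted p under 0.05, 10 of 39 genes passed, beside 18.4% of all genes. The values of the 3 RFC1-/- embryos lay wholly outside those of the 3 RFC1+/+ embryos for 14 genes, 7 higher and 7 lower, beside 26.2% of all genes (12.8% higher and 13.4% lower). The half-width of the 95% interval had a median of 0.26 on the log2 scale and ran from 0.23 for Cfl1 to 0.46 for Bbs4. For 29 of the 39 the whole interval stayed within 1.5-fold in either direction, which held for 81.9% of all genes.

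**Figure D1:**
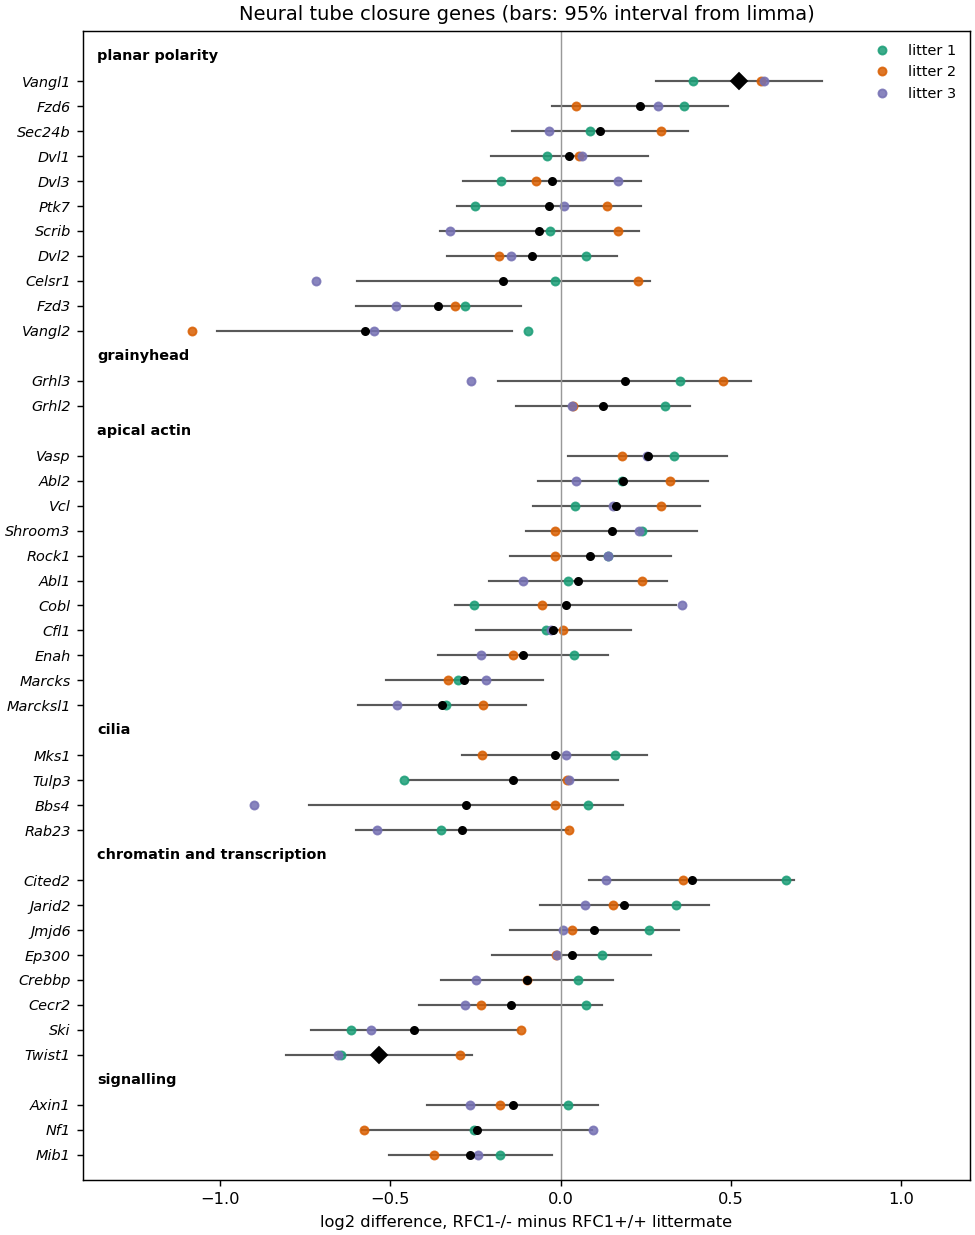
Log2 difference, RFC1-/- minus RFC1+/+ littermate, of the 39 measured neural tube closure genes, grouped by role. Coloured points are the 3 litters, black points their mean and bars the 95% interval from limma; the 2 black diamonds, Vangl1 at 0.52 and Twist1 at -0.53, passed an adjusted p of 0.05, and Vangl2 at -0.58 has the lowest mean with litters far apart.

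The upstream sequence is shown for 3 genes: Twist1, which passed the threshold, Vangl2, which had the largest difference on the brightest probe sets, and Marcksl1, whose probe sets were all lower. Each line gives the 250 bases before the RefSeq start site (GRCm38.p6), read 5′ to 3′ in the sense of the gene, and capitals mark GGGCGG, known as the GC box, the letters CCAAT of the box of that name, or TATAAA as the TATA box, on either strand. The Twist1 window lies at chr12:33957421-33957670 on the plus strand, the Vangl2 window at chr1:172027296-172027545 on the minus strand and the Marcksl1 window at chr4:129513331-129513580 on the plus strand.
Twist1: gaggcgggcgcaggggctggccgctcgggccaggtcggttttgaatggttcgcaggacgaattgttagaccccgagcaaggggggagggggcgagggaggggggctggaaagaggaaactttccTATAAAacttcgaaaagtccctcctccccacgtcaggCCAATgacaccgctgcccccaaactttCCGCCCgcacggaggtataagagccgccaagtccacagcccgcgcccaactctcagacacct
Vangl2: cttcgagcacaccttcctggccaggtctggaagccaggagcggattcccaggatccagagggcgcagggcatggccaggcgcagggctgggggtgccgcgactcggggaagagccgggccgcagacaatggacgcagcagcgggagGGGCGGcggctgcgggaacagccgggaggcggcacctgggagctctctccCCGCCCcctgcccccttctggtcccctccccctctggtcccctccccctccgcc
Marcksl1: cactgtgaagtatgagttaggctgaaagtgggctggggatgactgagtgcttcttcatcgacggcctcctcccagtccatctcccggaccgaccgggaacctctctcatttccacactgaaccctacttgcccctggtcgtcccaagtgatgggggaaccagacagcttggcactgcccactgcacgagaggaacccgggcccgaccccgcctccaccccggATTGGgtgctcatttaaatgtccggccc
The last bases of the Vangl2 line lie inside the annotated span of the gene, because the start site of the table is not its outermost one. Twist1 held 1 GC box, 1 CCAAT box and 1 TATA box and was 62.4% GC, Vangl2 held 2 GC boxes and was 73.6% GC, and Marcksl1 held 1 CCAAT box and was 60.4% GC. These are matches of letters anywhere in the window, whatever their distance from the start site, and were not shown to act as promoter elements. A GC box was found in 32.7% of all 32851 promoters of the table, a CCAAT box in 33.8% and a TATA box in 12.4%. Of the 34 promoters listed for 29 of the neural tube closure genes, 24 held a GC box, 10 a CCAAT box and 3 a TATA box. None of the 34 held the grainyhead motif AACCGGTT, which was found in 0.116% of all promoters. Vangl1, Fzd3 and Marcks had no entry.

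Among the 11 planar polarity genes, 1 rose and 0 fell past the threshold, and the median difference was -0.03. Vangl1 and Vangl2 encode paired transmembrane proteins that recruit Prickle to the cell edge. Vangl1 read 7.87, 7.94 and 7.85 in RFC1+/+ embryos and 8.26, 8.53 and 8.45 in RFC1-/- embryos, as log2 levels in the order of litters 1, 2 and 3 that is kept throughout. All 3 RFC1-/- embryos were above all 3 RFC1+/+ embryos, which lay close together. The log2 difference was 0.52 (standard error 0.10, 95% interval 0.28 to 0.77, limma adjusted p = 0.0363). Its second probe set, at 0.64, also had groups that did not overlap (adjusted p = 0.0800 over probe sets, limma). The call was lost when any litter was left out, with adjusted p from limma of 0.128, 0.127 and 0.0540 without litters 1, 2 and 3, while the difference stayed between 0.49 and 0.59.

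Vangl2, the gene of the loop-tail mutant with craniorachischisis, had a difference of the opposite sign. It read 9.29, 9.94 and 9.42 in RFC1+/+ embryos and 9.19, 8.86 and 8.87 in RFC1-/- embryos. The groups did not overlap, but the RFC1-/- embryo of litter 1 was only slightly below its littermate, and the gap was widest in litter 2. The log2 difference of -0.58 (standard error 0.18, 95% interval -1.01 to -0.14) did not pass (limma adjusted p = 0.141). It measured -0.82 without litter 1, -0.32 without litter 2 and -0.35 with probe sets averaged. Further probe sets of Vangl2 measured -0.27 and -0.21. Within litters, the Vangl1 difference exceeded the Vangl2 difference by 0.48, 1.67 and 1.15 in litters 1, 2 and 3, a mean of 1.10 ± 0.60 (SD, n = 3). With 3 litters no exact test that swaps genotypes within litters can give a two-sided p below 0.25, so this gap is a description.

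Fzd3 and Fzd6 are Frizzled receptors that act redundantly in closure. The brightest probe set of Fzd3 read 11.001, 10.976 and 10.972 in RFC1+/+ embryos and 10.72, 10.66 and 10.49 in RFC1-/- embryos. Every RFC1-/- embryo was below every RFC1+/+ embryo, yet the log2 difference of -0.36 (standard error 0.10) did not pass over genes (adjusted p = 0.107 from limma). All 6 Fzd3 probe sets were lower in RFC1-/- embryos, from -0.13 to -0.86, and 4 of them had groups that did not overlap. Over all probe sets on the array, 11.5% were lower without overlap, and probe sets of 1 gene share its transcripts. The pair that passed the threshold over all probe sets measured -0.86 (adjusted p = 0.00981, limma) and -0.51 (adjusted p = 0.0491, limma). In the first of these, Fzd3 measured 8.48, 8.64 and 8.62 in RFC1+/+ and 7.65, 7.81 and 7.70 in RFC1-/- embryos, a 1.82-fold difference that was alike in the 3 litters. When the probe sets of each gene were averaged, the Fzd3 difference was -0.54 and passed (adjusted p = 0.0260, limma).

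Fzd6 measured 7.87, 8.11 and 7.98 in RFC1+/+ embryos and 8.23, 8.16 and 8.27 in RFC1-/- embryos on its brightest probe set. The RFC1-/- values were all above the RFC1+/+ values by a narrow margin, and the log2 difference of 0.23 (95% interval -0.03 to 0.49) did not pass (adjusted p = 0.328, limma). Its other probe sets measured -0.15 and 0.03, so that the probe sets of Fzd6 did not share a direction. The Fzd3 difference was below the Fzd6 difference by 0.64, 0.36 and 0.77 in litters 1, 2 and 3.

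**Figure D2:**
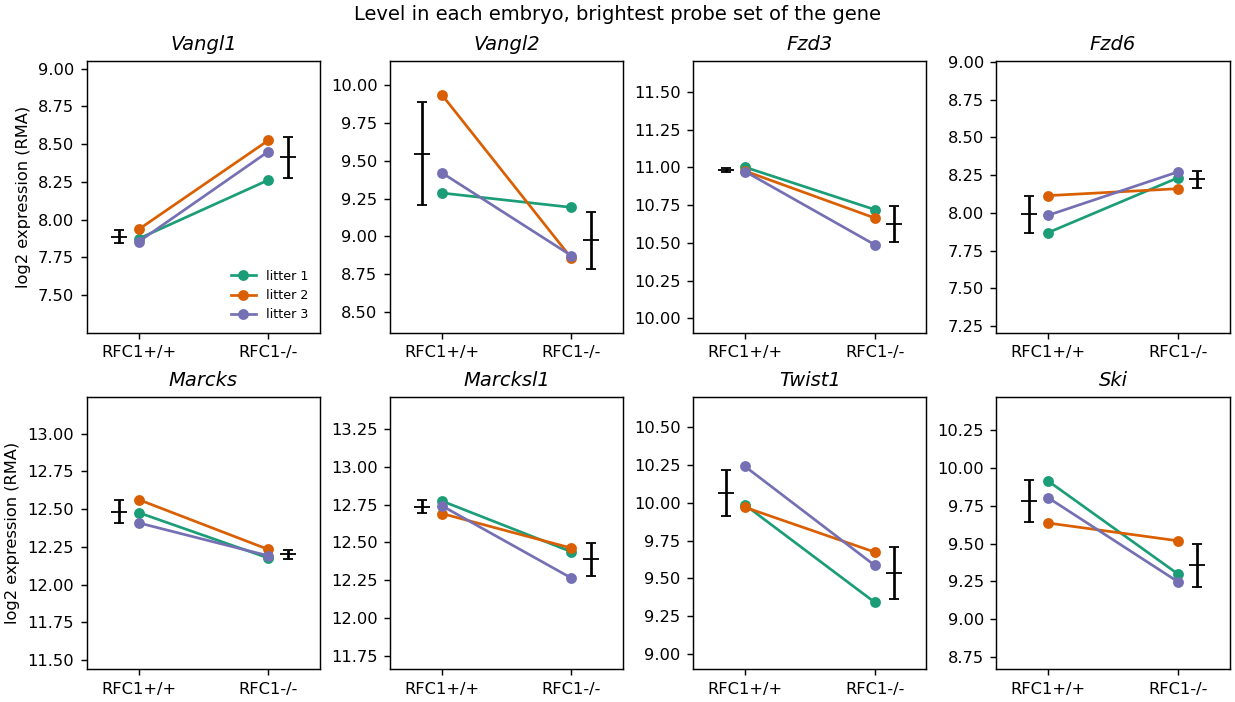
Log2 expression of 8 genes in each embryo on the brightest probe set, with lines joining littermates, colours for litters, and the mean and SD (n = 3) of each genotype in black; every panel spans the same number of log2 units. Vangl1 and Fzd6 lie higher and the other 6 genes lower in the RFC1-/- embryos. The 8 genes drawn are all among the 14 of 39 whose groups did not overlap, beside 26.2% of all genes. Genes with overlapping groups are not drawn.

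Dvl1, Dvl2 and Dvl3, the Dishevelled proteins that pass on Frizzled signals, had similar levels in both genotypes. Dvl1 measured 9.94, 9.89 and 9.75 in RFC1+/+ and 9.90, 9.94 and 9.81 in RFC1-/- embryos. Dvl2 measured 6.63, 6.76 and 6.80 against 6.70, 6.58 and 6.66, in the same order of genotypes. The groups overlapped for both, and the 95% intervals of their log2 differences were -0.21 to 0.26 and -0.33 to 0.16. Dvl3 measured 4.72, 4.64 and 4.24 in RFC1+/+ and 4.55, 4.57 and 4.41 in RFC1-/- embryos, below the median of every array, and was not shown to lie above background. The other planar polarity genes also had overlapping groups. Their log2 differences were -0.17 for Celsr1, an adhesion molecule of the cadherin family, -0.06 for Scrib, a scaffold of cell polarity, -0.03 for Ptk7, a pseudokinase receptor, and 0.12 for Sec24b, a coat protein that exports Vangl2 from the endoplasmic reticulum. Celsr1 differed by -0.02, 0.23 and -0.72 in litters 1, 2 and 3, so that litter 3 alone set its mean below 0.

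The grainyhead factors Grhl2 and Grhl3 drive genes of the epithelium that covers the neural folds. Grhl2 measured 6.75, 7.06 and 6.94 in RFC1+/+ and 7.05, 7.10 and 6.97 in RFC1-/- embryos. Grhl3 measured 5.78, 5.60 and 6.11 in RFC1+/+ and 6.13, 6.08 and 5.85 in RFC1-/- embryos. The genotypes overlapped for both genes, and the log2 differences of 0.13 and 0.19 had 95% intervals of -0.13 to 0.38 and -0.18 to 0.56. These Grhl2 values are from its brightest probe set, and its 3 dimmer probe sets lay below 0, at -0.07, -0.02 and -0.22 with overlapping groups. Among 15 measured markers of the epithelium of surface ectoderm and endoderm, 10 rose and Trp63 fell past the threshold. The mean level of the list was 7.82 to 8.12 in RFC1+/+ and 8.58 to 8.79 in RFC1-/- embryos. This list does not separate surface ectoderm from endoderm.

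None of the 11 measured apical actin genes passed the threshold, and their median difference was 0.05. The lowest were Marcksl1 and Marcks, which bind actin and membrane lipids and are substrates of protein kinase C. Marcksl1 measured 12.77, 12.69 and 12.74 in RFC1+/+ embryos and 12.44, 12.46 and 12.26 in RFC1-/- embryos. Marcks measured 12.48, 12.56 and 12.41 in RFC1+/+ embryos and 12.18, 12.23 and 12.19 in RFC1-/- embryos. For both genes every RFC1-/- embryo was below every RFC1+/+ embryo, and the spread within a genotype was small. The log2 differences were -0.35 for Marcksl1 (adjusted p = 0.120, limma) and -0.28 for Marcks (adjusted p = 0.174, limma), each with a standard error of 0.10. All 4 Marcksl1 probe sets were lower with groups that did not overlap, from -0.27 to -0.38, and none of them passed over probe sets. Over all probe sets on the array, 11.5% were lower without overlap, and probe sets of 1 gene are not independent. Of the 7 Marcks probe sets 6 were lower with groups that did not overlap, and 1 of them passed. On that probe set Marcks measured 9.57, 10.03 and 9.85 in RFC1+/+ and 8.97, 9.16 and 9.29 in RFC1-/- embryos, for a difference of -0.68 on the log2 scale (adjusted p = 0.0261, limma). Only the remaining Marcks probe set, at 0.02, lay on the other side. With a variance prior that follows intensity, both Marcks (adjusted p = 0.0425) and Marcksl1 (adjusted p = 0.0250) passed over genes in limma.

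Enah and Vasp, actin filament elongation factors of the same family, had differences of opposite sign. Enah measured 12.42, 12.48 and 12.58 in RFC1+/+ and 12.46, 12.34 and 12.34 in RFC1-/- embryos. Vasp measured 8.60, 8.80 and 8.82 in RFC1+/+ and 8.93, 8.98 and 9.08 in RFC1-/- embryos. The genotypes overlapped for Enah and not for Vasp, whose log2 difference of 0.26 (95% interval 0.02 to 0.49) did not pass (adjusted p = 0.225, limma). Within litters the Enah difference was below the Vasp difference by 0.29, 0.32 and 0.49. These Enah values are from its brightest probe set. Of 6 Enah probe sets 5 were lower, and a dimmer one, at -0.24, had groups that did not overlap (adjusted p = 0.293 over probe sets, limma).

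The kinases Abl1 and Abl2 relay signals to actin, and the kinase Rock1 activates the myosin that tightens the apical ring. On their brightest probe sets, levels of these kinases in RFC1-/- embryos stayed close to those of littermates. Abl1 measured 10.05, 9.97 and 10.00 in RFC1+/+ and 10.07, 10.21 and 9.89 in RFC1-/- embryos. Abl2 measured 10.19, 10.07 and 10.29 in RFC1+/+ and 10.37, 10.39 and 10.33 in RFC1-/- embryos. Rock1 measured 10.20, 10.29 and 10.36 in RFC1+/+ and 10.34, 10.27 and 10.49 in RFC1-/- embryos. Abl2 was narrowly higher in all 3 RFC1-/- embryos, with a log2 difference of 0.18 (adjusted p = 0.441, limma), and the groups overlapped for Abl1 at 0.05 and Rock1 at 0.09. The 5 Rock1 probe sets ran from -0.34 to 0.25, all with overlapping groups. Of 3 Abl1 probe sets 2 lay below 0, and a dimmer one, at -0.19, had groups that did not overlap. Shroom3, which recruits Rock to the apical surface, measured a difference of 0.15 with overlapping groups, and its 4 dimmer probe sets were all below 0. Vcl, the junction protein vinculin, measured 0.16 with groups that did not overlap, while the actin nucleator Cobl and the severing factor Cfl1 measured 0.02 and -0.02 with overlapping groups. The dimmer Cobl probe set measured 0.37 with groups that did not overlap (adjusted p = 0.122 over probe sets, limma). Its levels, from 4.88 to 5.44, lay near or below the array medians and were not shown to lie above background. The interval for Cfl1, from -0.25 to 0.21, was the narrowest of the 39.

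All 4 cilia genes had means below 0, as did 9817 of all 18194 genes, and none passed. Rab23, a GTPase that restrains hedgehog signalling, measured -0.29, Bbs4, a part of the BBSome, -0.28, Tulp3, an adaptor of ciliary transport, -0.14, and Mks1, of the transition zone, -0.02 on the log2 difference scale. On these brightest probe sets the genotypes overlapped for all 4, and no gene of this group had the same sign in all litters. The Bbs4 mean came from litter 3, at -0.90, beside 0.08 and -0.02 in litters 1 and 2, and the Tulp3 mean from litter 1, at -0.46, beside 0.02 in each of the others. Another Rab23 probe set measured -0.15, below 0 in every litter and with groups that did not overlap. Another Bbs4 probe set measured -0.55, -0.16 and -0.07 in litters 1, 2 and 3, with overlapping groups.

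Twist1 was the 1 of 8 chromatin and transcription genes that passed. It read 9.99, 9.97 and 10.24 in RFC1+/+ embryos and 9.34, 9.67 and 9.59 in RFC1-/- embryos. Every RFC1-/- embryo was below every RFC1+/+ embryo, with the smallest step in litter 2. The log2 difference was -0.53 (standard error 0.11, 95% interval -0.80 to -0.26, adjusted p = 0.0489 from limma). Twist1 has a single probe set here, which did not pass when adjusted over all probe sets (adjusted p = 0.0637, limma). Its call over genes was lost without litter 1 (adjusted p = 0.280) and without litter 3 (adjusted p = 0.0804) in limma, and the difference then measured -0.48 and -0.47. Among 12 mesenchyme markers Prrx1 and Meox1 fell (a count of 1 when any litter was left out), and the mean level of the list was 9.29 to 9.40 in RFC1+/+ and 9.05 to 9.28 in RFC1-/- embryos. Whether the makeup of the mesenchyme has a part in the Twist1 value was not tested.

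Ski, a nuclear partner of Smad proteins, measured 9.91, 9.64 and 9.80 in RFC1+/+ and 9.30, 9.52 and 9.25 in RFC1-/- embryos on its brighter probe set. The genotypes did not overlap, and the log2 difference of -0.43 (standard error 0.13) did not pass (adjusted p = 0.122, limma), while the dimmer probe set measured -0.03 with overlapping groups. Cited2, which binds the acetyltransferases Ep300 and Crebbp, had a difference of the opposite sign. It measured 10.79, 10.96 and 11.28 in RFC1+/+ and 11.45, 11.32 and 11.42 in RFC1-/- embryos, again without overlap, and its difference of 0.38 (standard error 0.13) did not pass (limma adjusted p = 0.156). Its binding partners lay close to the levels of their littermates. Ep300 measured 9.58, 9.68 and 9.86 in RFC1+/+ and 9.70, 9.67 and 9.85 in RFC1-/- embryos, with a 95% interval of -0.20 to 0.27. Crebbp measured 10.25, 10.30 and 10.60 in RFC1+/+ and 10.30, 10.20 and 10.36 in RFC1-/- embryos, with a 95% interval of -0.35 to 0.15, although all 4 of its probe sets lay below 0. The Polycomb partner Jarid2 measured a difference of 0.19 with groups that did not overlap, while its dimmest probe set measured -0.20 with overlapping groups. The hydroxylase Jmjd6, at 0.10, and the chromatin remodelling factor Cecr2, at -0.15, had overlapping groups.

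The signalling genes all had means below 0, as did 9817 of all 18194 genes, and none of the 3 passed. Mib1, the ubiquitin ligase that lets Notch ligands signal, measured 9.98, 10.08 and 10.08 in RFC1+/+ and 9.80, 9.70 and 9.83 in RFC1-/- embryos. Its groups did not overlap on any of its 3 probe sets, whose log2 differences lay between -0.25 and -0.27. Over all probe sets on the array, 11.5% were lower without overlap. The brightest Mib1 probe set had an adjusted p of 0.217 in limma. Nf1, which switches off Ras, measured -0.25 and Axin1, which limits beta-catenin, -0.14, both with overlapping groups.

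Over all 106 probe sets, 4 passed the threshold, 1 higher and 3 lower, where 2.75% of all probe sets on the array passed (1.87% higher and 0.882% lower). The 4 became 0 without litter 1 and with the variation filter, 1 without litter 2, 2 with arrays centred and 8 with a term for embryo sex. The genotypes did not overlap for 34 of the 106, 10 higher and 24 lower, beside 21.3% of all probe sets (9.81% higher and 11.5% lower). Means lay below 0 for 75 of the 106 probe sets, beside 24913 of 45101. Counted over genes, 22 of 39 means lay below 0, beside 9817 of 18194. For 80 of the 106 the 95% interval stayed within 1.5-fold in either direction, as it did for 85.6% of all probe sets. Probe sets of 1 gene share its transcripts, so these counts are not counts of independent genes. Of 9 genes with 4 or more probe sets, all probe sets lay on the same side for 4, namely Fzd3, Marcksl1, Bbs4 and Crebbp, beside 30.8% of all genes with as many. Mean levels of neural progenitor markers were lower in all 3 RFC1-/- embryos. In the same embryos Vangl2, Twist1, Ski, Fzd3, Marcks, Marcksl1 and Mib1 were lower without overlap on their brightest probe sets. Another 7 of the 39 genes were higher without overlap, beside 13.4% of all genes lower and 12.8% higher. What part neural progenitors have in any of these values was not tested.

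**Figure D3:**
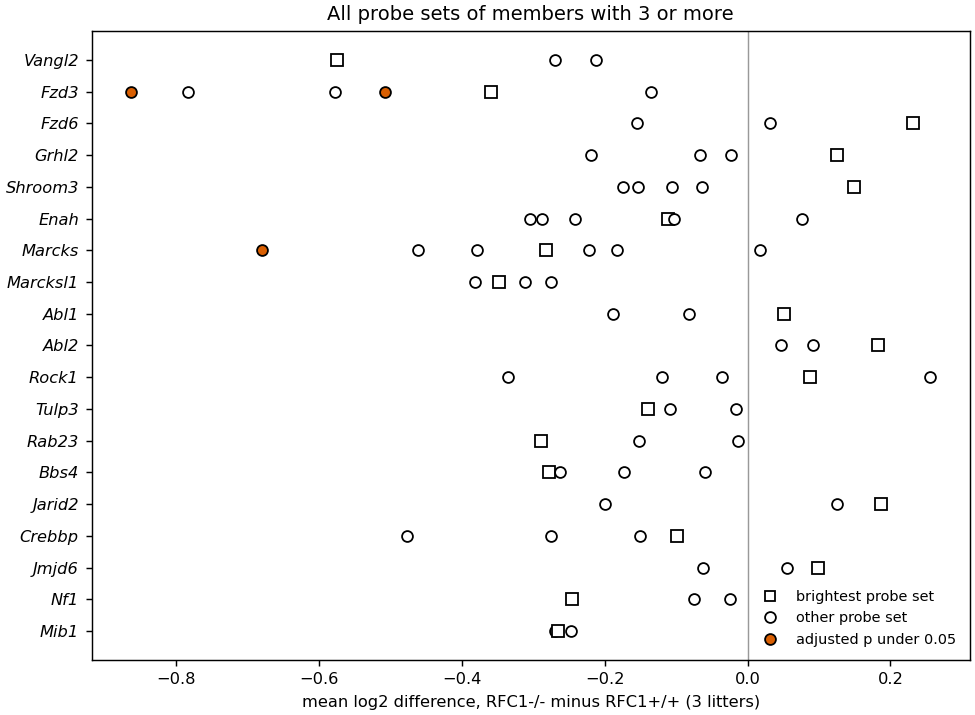
Mean log2 difference, RFC1-/- minus RFC1+/+ (3 litters), of every probe set of the 19 neural tube closure genes that have 3 or more; squares are the brightest probe set of a gene and filled circles passed an adjusted p of 0.05 over all probe sets. Fzd3 spreads from -0.13 to -0.86 without crossing 0, whereas Fzd6, Grhl2, Shroom3, Rock1 and Jarid2 are among the genes that lie on both sides.

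Other genes of the same pathways were read from lists drawn up beside the 40. Of 28 further planar polarity genes that were measured, 0 rose and 2 fell. Sfrp2 and Sfrp1, secreted proteins that bind Wnt, fell 1.99-fold (adjusted p = 0.0251) and 1.39-fold (adjusted p = 0.0463) in limma, with groups that overlapped for Sfrp1. The count of 2 was 1 without litter 1 or 2, with no litter block, with the random-variance test, with the variation filter and with arrays centred, and 4 with a term for embryo sex. The remaining 26 did not pass, and the median of the list was -0.04. Among them, and named after its value was seen, Prickle1, the partner of the Vangl proteins, measured 0.49 (adjusted p = 0.0696, limma). Of 30 further actin and adhesion genes, Lama5, a laminin chain of basement membranes, rose by 0.60 (adjusted p = 0.0401, limma), and 0 fell. The count of 1 was 0 without litter 1 or 2, with arrays centred, with probe sets averaged and with the variation filter, 2 without litter 3, 3 with an intensity trend, 4 with no litter block and 5 with a term for embryo sex. The genotypes did not overlap for 16 of the 30, of which 13 were higher, beside 26.2% and 12.8% of all genes.

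A wider list of 36 measured genes whose mutants have neural tube defects covered a wider range. Of these, 4 rose and 4 fell, and the total of 8 was 4 without litter 1 and 5 with the variation filter. Folr1, the folate receptor of the embryo and yolk sac, rose 5.26-fold, while Pax3 and Zic5, transcription factors of the dorsal neural tube, fell by 2.39-fold and 1.84-fold, and Alx1, of head mesenchyme, fell by 2.12-fold (adjusted p between 0.0102 and 0.0378, limma). The others, named after their values were seen, were the serine protease gene St14 and the protease inhibitor genes Spint1 and Spint2, which rose by 0.73, 0.84 and 0.72 on the log2 scale, and Zic2, which fell by 0.69. The range of differences was -1.25 to 2.40 on this list, against -0.58 to 0.52 on the 39 genes.

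Lists of cell type markers had medians further from 0 than the neural tube closure genes. Of 10 neural progenitor markers 8 fell, led by Zic1, which was 3.05-fold lower, Fabp7 and Hes5, with a list median of -1.08. Pax3 is on this list and on that of mutants. Of 10 neuron markers 6 fell, led by Neurod1, with a list median of -1.30 and mean levels of 7.12 to 7.79 in RFC1+/+ and 6.13 to 6.49 in RFC1-/- embryos. Of 15 epithelial markers of surface ectoderm and endoderm 10 rose, with Cldn6 2.74-fold higher. Trp63, a factor of the surface ectoderm, fell 1.95-fold, and the list median was 0.70. All 9 measured visceral endoderm markers rose (list median 3.85), all 8 measured primitive erythroid markers fell (list median -3.44), and 7 of 8 heart muscle markers passed as higher (list median 0.76). The heart muscle count was 0 without litter 1, 1 without litter 2 and 2 with the variation filter. Mean levels ran from 6.94 to 8.50 in RFC1+/+ and 10.27 to 11.97 in RFC1-/- embryos for visceral endoderm, from 9.33 to 10.12 and 5.84 to 6.79 for erythroid cells, and from 10.53 to 10.85 and 11.30 to 11.45 for heart muscle. How far the cells that carry these markers enter the values of Vangl1, Vangl2, Fzd3, Marcks, Twist1 and the other genes was not tested.

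**Figure D4:**
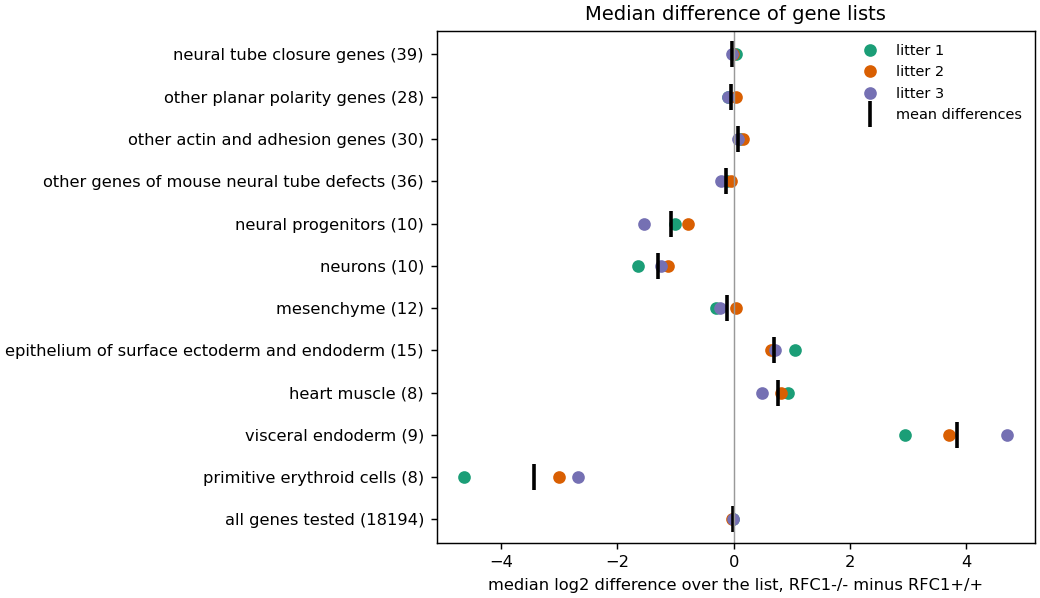
Median log2 difference, RFC1-/- minus RFC1+/+, over each gene list in litters 1, 2 and 3 (coloured points) and of the mean differences (black bars), with the number of genes measured in brackets. The 39 neural tube closure genes sit at -0.03 next to all genes at -0.01, while neural progenitor markers sit at -1.08, visceral endoderm markers at 3.85 and erythroid markers at -3.44.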

How the data were processed

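Total RNA (100 ng) of 6 whole E9.5 embryos was amplified and hybridized by the authors, 1 embryo per array. They deposited log2 expression values made by robust multiarray averaging (RMA, also named in the submitters' processing notes): background correction, quantile normalization and a median polish for each probe set. The sources used here name no version of RMA. The variation filter of the methods had not been applied to the 45101 probe sets deposited, and 0 columns of values were left unused. Arrays give no read depth, and their number (3 per genotype) limits the precision.

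Genotypes and litters came from the labels. The litter marks littermates and was a block in the model, as in the methods. Deviations of same-numbered embryos from their group means correlated at 0.10, -0.05 and -0.15. Between RFC1+/+ and RFC1-/- embryos of different litters they correlated at -0.12 to 0.16, so littermates were not more alike on the arrays. RFC1-/- minus RFC1+/+ was fitted with limma 3.58.1 in R 4.3.3, and p-values were adjusted by Benjamini-Hochberg with a threshold of 0.05. A first fit took 18194 genes, represented by the probe set that was brightest on average among those with 1 symbol (34958 had 1, 932 several, 9211 none, from the platform annotation), with no filter on low values, and a second took all probe sets. The script was tested on simulated data. Lists, promoters (RefSeq) and plots were handled in Python 3.11.15 with pandas 2.3.3, numpy 2.4.6 and matplotlib 3.10.9.

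Values of every embryo are given for each neural tube closure gene past the threshold or with a paralog among them, others by range or difference, and Ski, Cited2 and Mib1 were added after their values were seen. From each other list up to 4 genes past the threshold and any against the direction of most were to be named. The neural tube closure genes, the lists and the alternatives were chosen with earlier results of these data known. Alternatives were no replicate block, an intensity trend, the random-variance paired test of the methods, dim genes left out (below the median of all values on every array), the 1.5-fold variation filter, arrays centred on their median, a second quantile normalization, probe sets averaged for each gene and each litter left out. A term for embryo sex, read from the arrays (1 female among the 3 embryos of each genotype), was added after seeing the data. It leaves fewer residual degrees of freedom than the 2 of the model reported, so its counts are a description only.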

Additional observations from a re-analysis of the deposited data

How the results depend on the processing

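The number of neural tube closure genes past the threshold, 2 in the model reported, was 4 with an intensity trend, 1 with the random-variance paired test, 1 with dim genes left out, 1 with arrays centred on their median and 0 with the variation filter, which kept Vangl2 alone of the 39, and it ran from 0 to 1 when a litter was left out. Twist1 was the gene lost with the random-variance test (adjusted p = 0.0540), without dim genes (adjusted p = 0.0527, limma) and with centring (adjusted p = 0.0722, limma), and Vangl1 kept its call under these 3. Without the replicate block the count stayed at 2 and no call among the 39 changed, while the count over all genes went from 968 to 1156. Over all genes it was 537 with the variation filter, 1796 with embryo sex as a term and 355 to 1199 without a litter, 355 being without litter 1. Over all probe sets it went from 1241 to 491 and 2313 under the same settings and to 129 to 1585 without a litter, 129 being without litter 1. Of the related and marker genes 61 passed, and 41 to 66 without a litter.

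Signs turned only for genes with a difference of at most 0.28 that had not passed. With the mean of the probe sets, Dvl2 was 0.027, Sec24b -0.054, Grhl2 -0.046, Shroom3 -0.069, Abl1 -0.073 and Rock1 -0.030. Leaving out litters gave -0.37 to 0.11 for Celsr1, -0.18 to 0.069 for Scrib, -0.12 to 0.073 for Ptk7, -0.12 to 0.049 for Dvl3, -0.044 to 0.13 for Abl1, -0.15 to 0.15 for Cobl, -0.22 to 0.021 for Tulp3, -0.11 to 0.088 for Mks1, -0.46 to 0.032 for Bbs4 and -0.012 to 0.055 for Ep300. Cobl was -0.0044 with a second quantile normalization. The causes were not tested. Values near the array medians, such as those of Dvl3 and Ptk7, were not shown to lie above background.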
